A study of Oryza sativa Indica Group with 8 samples.

Results

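The genes described here are 6 transcription factors of the basic leucine zipper (bZIP) family that carry the abscisic acid signal in rice: OsbZIP23 (LOC_Os02g52780), OsbZIP46 (LOC_Os06g10880), OsbZIP72 (LOC_Os09g28310), OsABI5 (LOC_Os01g64000), TRAB1 (LOC_Os08g36790) and OsbZIP12 (LOC_Os01g64730). They were chosen by locus identifier from the 55986 loci in the count tables, with earlier results of these data known. Their messenger RNA was measured by sequencing of leaves of BRS Ligeirinho, an indica rice whose labels call it sensitive to salt, in 8 libraries. Double-shock plants met salt at the vegetative stage V4 and again at the reproductive stage R0-R1. Reproductive-shock plants met it at R0-R1 alone and vegetative-shock plants at V4 alone, while control plants received water and nutrient solution throughout. Each of the 4 groups had 2 libraries, and all plants shared the cultivar, sand culture and a greenhouse at 25 °C. No source used here gives the salt dose, how long a shock lasted or when leaves were sampled, and shock and sampling time cannot be told apart. The labels do not say that libraries of 1 group are different plants. The p-values therefore cover library-to-library spread, which may be technical.

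Abscisic acid accumulates when a plant loses water or meets salt. Bound receptors of the PYR/PYL family inhibit clade A protein phosphatases, which releases the SAPK kinases. These kinases phosphorylate bZIP factors, which bind abscisic acid response elements in promoters and switch on genes for protective proteins. Because the factors are activated on the protein, their messenger RNA level is one layer of their control only.

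The deposited tables list identifiers without gene names. Names used here are those of the list that defined the 6 genes. A RefSeq gene table (assembly ASM3414082v1) held 0 of the 55986 identifiers, and the names of only OsbZIP23 and TRAB1 among its synonyms, so other genes of the pathway and leaf marker genes were not analysed here. The identifiers place OsABI5 and OsbZIP12 on chromosome 1 with 72 listed loci between them, OsbZIP23 on chromosome 2, OsbZIP46 on chromosome 6, TRAB1 on chromosome 8 and OsbZIP72 on chromosome 9. Counted reads per library ranged from 10464740 to 11727657. Levels are given as CPM, counts scaled to library size with TMM factors, and are compared within a gene only, since CPM is not corrected for transcript length. Multiply aligned reads made up 13.5% to 13.8% of the total in 3 libraries (double-shock replicate 1, reproductive replicate 2 and control replicate 1) and 9.32% to 9.995% in the other 5.

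Of the 6 genes, 5 had enough reads to be tested. OsbZIP23 stood lower in every library of the 3 shock groups than in either control library, by 1.67-fold to 1.77-fold per group. OsbZIP72 averaged higher in each shock group than in control, and the vegetative-shock libraries held the lowest TRAB1 levels. OsbZIP12 and OsbZIP46 varied as much between libraries of 1 group as over all 8 libraries. OsABI5 had almost no reads in any group. None of these differences passed the threshold of an adjusted p below 0.05 in edgeR's quasi-likelihood test over 18251 loci, in any of the 11 comparisons made. The plot of levels by library shows the 6 genes.

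**Figure D1:**
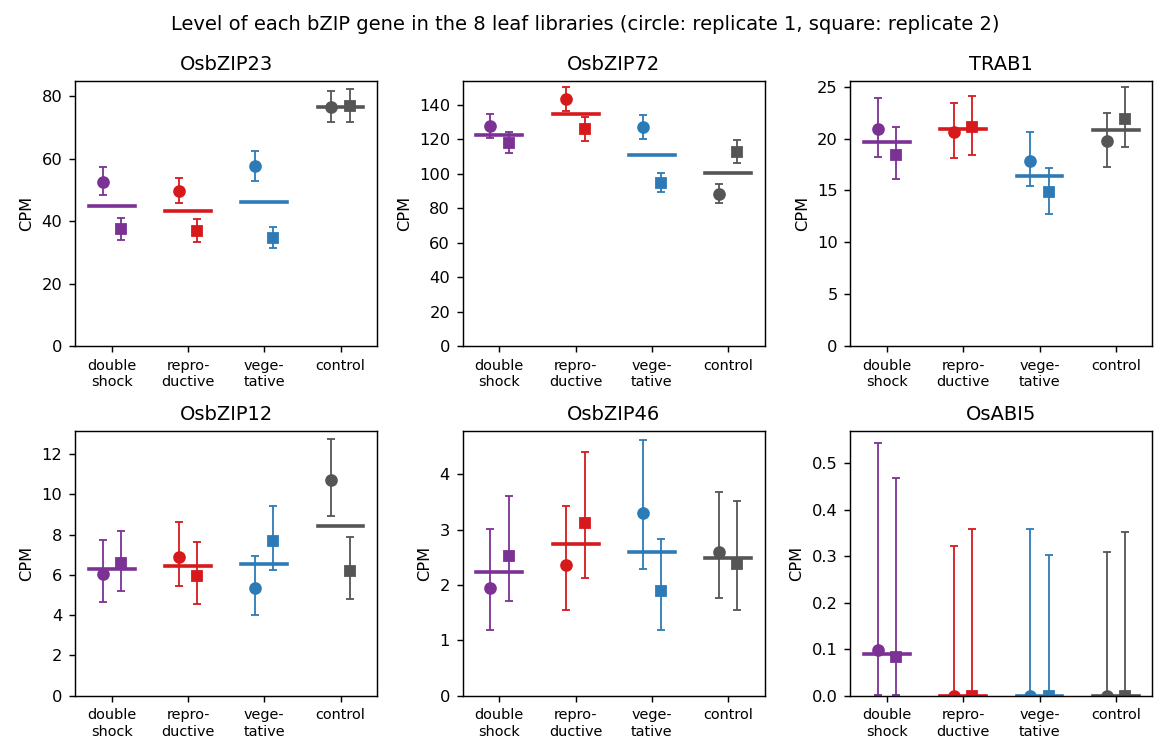
CPM of each gene (y axis, linear, from 0) in the double-shock, reproductive-shock, vegetative-shock and control groups, with a circle for replicate 1, a square for replicate 2, a horizontal line at the group mean and bars for the 95% exact Poisson interval of the count. The 6 shock libraries of OsbZIP23 lie between 34.6 and 57.5 CPM, below the control libraries at 76.5 and 76.8 CPM.

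OsbZIP23 is a positive regulator of abscisic acid responses whose overexpression in rice raises tolerance to drought and salt. It had 52.6 and 37.4 CPM in the double-shock libraries, 49.7 and 36.9 CPM in the reproductive-shock libraries, 57.5 and 34.6 CPM in the vegetative-shock libraries, and 76.5 and 76.8 CPM in control. No shock library reached the control level, while the 3 shock groups overlapped each other throughout. Group means were 45.0 ± 10.7, 43.3 ± 9.04 and 46.1 ± 16.2 CPM in double-shock, reproductive-shock and vegetative-shock plants, against 76.7 ± 0.202 CPM in control (SD, n = 2 each). The order from low to high was thus reproductive, double-shock, vegetative and control, and only the step to control was larger than the spread within the groups. The gene was well covered, with 379 to 592 reads in a shock library and 915 and 806 in control. Before TMM scaling the shock libraries held 34.0 to 56.1 CPM and the control libraries 82.4 and 74.4 CPM, so the groups were separate on that scale too. In leaf RNA, fewer cells of a type and less RNA per cell cannot be told apart.

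In reproductive-shock plants the log2 fold change of OsbZIP23 against control was -0.82 (SE 0.25, 95% interval -1.40 to -0.25, unadjusted p = 0.010, edgeR adjusted p = 0.20). DESeq2 gave it an adjusted p of 0.0499, the only one of these 3 group comparisons in which that tool called it, where it called 2.42% of the loci it adjusted. Over all alternatives the adjusted p ran from 3.4e-05 to 0.62. For double-shock plants the log2 fold change was -0.77 (interval -1.35 to -0.20, edgeR adjusted p = 0.30), and for vegetative-shock plants -0.74 (interval -1.31 to -0.16, edgeR adjusted p = 0.53). Without the filter on low counts edgeR called OsbZIP23 in all 3, in a fit whose prior degrees of freedom were estimated as infinite. That fit called 4.18% of all 30913 loci in the reproductive-shock, 3.62% in the double-shock and 1.61% in the vegetative-shock comparison. These 3 comparisons use the same control libraries. Their intervals correspond to levels 1.19-fold to 2.64-fold, 1.15-fold to 2.54-fold and 1.12-fold to 2.48-fold lower than in control.

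The shock groups were also set directly against each other. Between double-shock and reproductive-shock plants the log2 fold change of OsbZIP23 was 0.053 (interval -0.53 to 0.63), between double-shock and vegetative-shock plants -0.033 (interval -0.61 to 0.55), and between reproductive-shock and vegetative-shock plants -0.086 (interval -0.66 to 0.49). These intervals still allow differences of up to 1.59-fold. The interaction, which asks whether the late-shock difference depends on an earlier shock, was 0.79 (SE 0.36, interval -0.024 to 1.61, unadjusted p = 0.056, edgeR adjusted p = 0.53). Leaving out vegetative replicate 1 gave 1.20, leaving out vegetative replicate 2 gave 0.47, and leaving out double-shock replicate 1 gave 0.52. Its sign reflects that a late shock went with a log2 difference of -0.82 in plants not shocked before and of -0.033 in plants that had been.

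A comparison of the mean of the 3 shock groups with control was added after these values had been seen. Because it was chosen from the values it tests, its p-values are descriptive only and add no support to the difference. The comparison gave OsbZIP23 a log2 fold change of -0.78 (SE 0.20, interval -1.23 to -0.33, unadjusted p = 0.0036, edgeR adjusted p = 0.15), rank 442 of 18251 loci by p. Adjusted p-values were 0.016 with edgeR's likelihood ratio test, 0.015 with DESeq2 and 0.049 with the replicate number as a block, within a range of 1.0e-07 to 0.59 over all alternatives. These fits called 2.82%, 1.78% and 0.679% of all loci, in that order. The part of the multiply aligned share in this difference was not tested beyond a fit with that share as a term, which gave -0.77 (edgeR adjusted p = 0.22). Among the 3 libraries of high share, OsbZIP23 stood at 52.6 CPM (double-shock) and 36.9 CPM (reproductive), against 76.5 CPM in control. Among the 5 of low share it stood between 34.6 and 57.5 CPM in shock libraries, against 76.8 CPM in control.

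**Figure D2:**
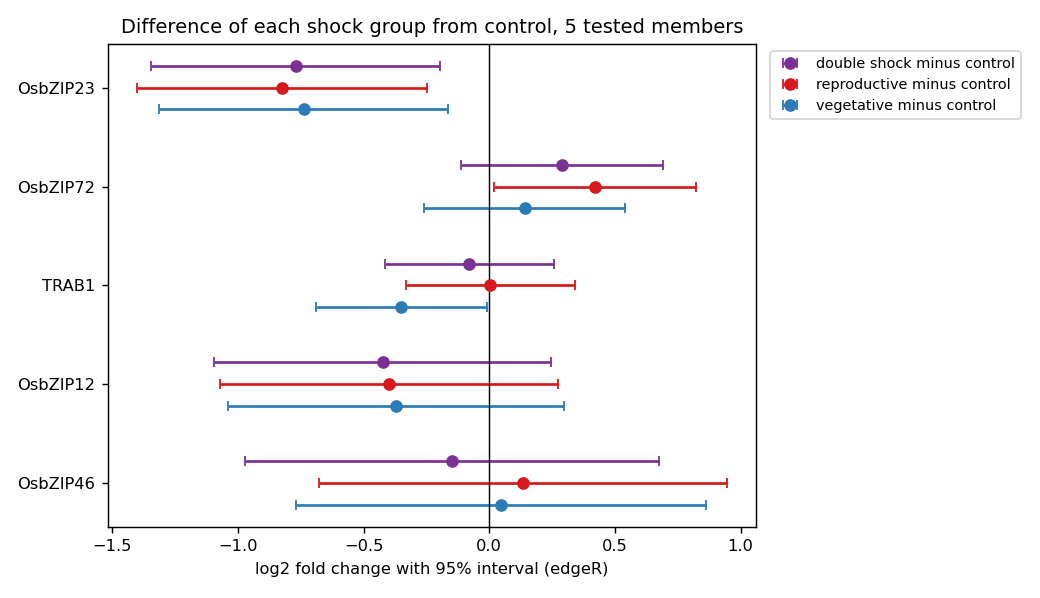
Log2 fold change against control (x axis) of the 5 tested genes in double-shock, reproductive-shock and vegetative-shock plants, with the 95% interval from the edgeR fit as bars and a vertical line at no difference. The 3 intervals of OsbZIP23 lie below 0, at -0.16 or lower, and most others span 0.

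OsbZIP72 is a positive regulator that binds abscisic acid response elements and is known in rice for drought tolerance. It had 127 and 118 CPM in the double-shock libraries, 143 and 126 CPM in the reproductive-shock libraries, 127 and 94.5 CPM in the vegetative-shock libraries, and 88.2 and 113 CPM in control libraries. Double-shock and reproductive-shock libraries all lay above both control libraries, while the vegetative-shock group overlapped control. The means were 123 ± 6.82, 134 ± 12.4 and 111 ± 22.8 CPM in double-shock, reproductive-shock and vegetative-shock plants, against 100.4 ± 17.2 CPM in control (SD, n = 2 each). In the reproductive-shock comparison with control the log2 fold change was 0.42 (SE 0.18, interval 0.020 to 0.82, unadjusted p = 0.042, edgeR adjusted p = 0.33). It was 0.29 in double-shock plants (interval -0.11 to 0.69, edgeR adjusted p = 0.59) and 0.14 in vegetative-shock plants (interval -0.26 to 0.54, edgeR adjusted p = 0.92). Without control replicate 1 these values were 0.26 in reproductive-shock, 0.12 in double-shock and -0.025 in vegetative-shock plants, and without control replicate 2 they were 0.61, 0.47 and 0.33. The vegetative-shock value was -0.084 without vegetative replicate 1 and 0.34 without vegetative replicate 2. Averaged over plants with and without an early shock, the late-shock log2 difference was 0.29 (interval 0.0015 to 0.57, unadjusted p = 0.049, edgeR adjusted p = 0.39), and 0.19 without vegetative replicate 2. The averaged early-shock difference was 0.0039 (interval -0.28 to 0.29).

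TRAB1 is a bZIP factor that interacts with the seed regulator VP1 and is phosphorylated in response to abscisic acid. Its levels were 21.0 and 18.5 CPM in the double-shock libraries, 20.6 and 21.1 CPM in the reproductive-shock libraries, 17.9 and 14.8 CPM in the vegetative-shock libraries, and 19.7 and 21.9 CPM in control libraries. Both vegetative-shock libraries lay below the other 6. This was seen in the levels, and the share of all loci with that separation was not counted. The vegetative-shock mean was 16.4 ± 2.14 CPM, and the means were 19.7 ± 1.78 CPM for double-shock plants, 20.9 ± 0.341 CPM for reproductive-shock plants and 20.8 ± 1.54 CPM in control plants (SD, n = 2 each). Vegetative-shock plants differed from control by a log2 fold change of -0.35 (SE 0.15, interval -0.69 to -0.011, unadjusted p = 0.044, edgeR adjusted p = 0.63), and by -0.22 without vegetative replicate 2. Reproductive-shock plants stood above vegetative-shock plants by 0.35 (interval 0.014 to 0.69, unadjusted p = 0.043, edgeR adjusted p = 0.64) and double-shock plants by 0.27 (interval -0.070 to 0.61, edgeR adjusted p = 0.67). Without vegetative replicate 2 these differences were 0.22 and 0.14, and without double-shock replicate 1 the second was 0.17. For reproductive-shock plants against control the interval ran from -0.33 to 0.34, or from 1.26-fold lower to 1.265-fold higher. It ran from -0.42 to 0.26 for double-shock plants.

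OsbZIP12, also known as OsABF1, is a further positive regulator of abscisic acid and drought responses in rice. It had 6.05 and 6.57 CPM in the double-shock libraries, 6.91 and 5.94 CPM in the reproductive-shock libraries, 5.34 and 7.71 CPM in the vegetative-shock libraries, and 10.7 and 6.20 CPM in control libraries. One control library stood above all others and the second lay among the shock libraries. The control libraries held 128 and 65 reads, a 1.73-fold difference in CPM within the group. Log2 fold changes against control were -0.42 (SE 0.30), -0.40 (SE 0.30) and -0.37 (SE 0.29) in double-shock, reproductive-shock and vegetative-shock plants, with edgeR adjusted p-values of 0.64, 0.61 and 0.85. Without control replicate 1 these values were 0.027, 0.053 and 0.080, so the lower averages rested on that library.

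OsbZIP46 needs activation of its protein before it switches on stress genes in rice. It had 20 to 34 reads per library, and levels of 1.95 and 2.53 CPM in the double-shock libraries, 2.36 and 3.11 CPM in the reproductive-shock libraries, 3.30 and 1.89 CPM in the vegetative-shock libraries, and 2.59 and 2.38 CPM in control libraries. All groups overlapped, and the vegetative-shock group held both the highest and the lowest library. A count of 20 reads carries a 95% exact Poisson interval of 12.2 to 30.9 reads, and one of 34 reads an interval of 23.6 to 47.5, for counting error only. Against control the log2 fold changes were -0.15 (interval -0.97 to 0.68), 0.13 (interval -0.68 to 0.94) and 0.047 (interval -0.77 to 0.86) in double-shock, reproductive-shock and vegetative-shock plants. The widest of these limits were 1.96-fold lower and 1.92-fold higher.

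OsABI5 acts in rice in abscisic acid responses of seeds and in fertility, and its overexpression makes plants more sensitive to salt. It had 1 read in each double-shock library and 0 reads in every reproductive-shock, vegetative-shock and control library. All 8 libraries stood under the 3 reads that a count of 0 allows as a one-sided 95% limit, which correspond to 0.246 to 0.293 CPM here and cover counting error only. The two-sided intervals drawn in the plot of levels reach 3.69 reads for a count of 0. No fold change is given, and the gene did not pass the filter on low counts.

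Spread between libraries ordered the 5 tested genes differently from their read depth. Over the 8 libraries the coefficient of variation of CPM was 32.0% for OsbZIP23, against 20.3% within groups and 4.14% from counting error alone. For OsbZIP72 these values were 15.5%, 13.6% and 2.78%, and for TRAB1 11.9%, 8.23% and 6.82%. OsbZIP12 had 24.3% over all libraries and 26.6% within groups, and OsbZIP46 19.8% and 24.2%, with counting errors of 11.3% and 19.0%. OsbZIP23 thus had the widest gap between its overall and its within-group spread, and TRAB1 and OsbZIP46 lay nearest to counting error.

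**Figure D3:**
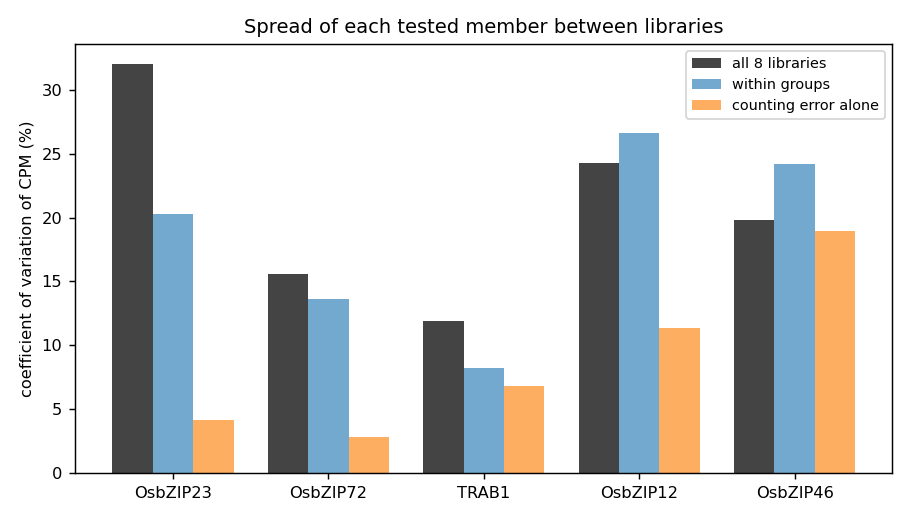
Coefficient of variation of CPM in percent (y axis, from 0) for each tested gene, over all 8 libraries, within groups (pooled over the 4 groups) and as counting error alone gives for the mean count. OsbZIP23 stands at 32.0% over all libraries against 20.3% within groups, and OsbZIP46 at 19.8% against a counting error of 19.0%.

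Read ratios within a library do not depend on how libraries are scaled. The reads of OsbZIP23 were divided by those of each other tested gene, a description added after the levels had been seen. OsbZIP23 was made the numerator because its shock libraries stood apart from control, so the ratios are given without a test. Relative to OsbZIP72 the ratio was 0.412 and 0.318 in double-shock, 0.347 and 0.294 in reproductive-shock, 0.454 and 0.366 in vegetative-shock, and 0.867 and 0.683 in control libraries. Every shock library thus stood below both control libraries, with the ratio 2.13-fold lower on average of logs. That was the largest of the 4 ratio differences, and OsbZIP72 itself averaged higher in each shock group. Relative to TRAB1 the ratio ran from 1.75 to 3.22 in shock libraries, against 3.50 and 3.88 in control. Relative to OsbZIP46 it ran from 11.8 to 26.95, against 29.5 and 32.2. Relative to OsbZIP12 it ran from 4.49 to 10.8, against 7.15 and 12.4, so shock and control libraries overlapped. On average of logs these ratios were 1.58-fold (TRAB1), 1.73-fold (OsbZIP46) and 1.37-fold (OsbZIP12) lower in shock libraries. How often ratios to other loci separate in this way was not counted.

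**Figure D4:**
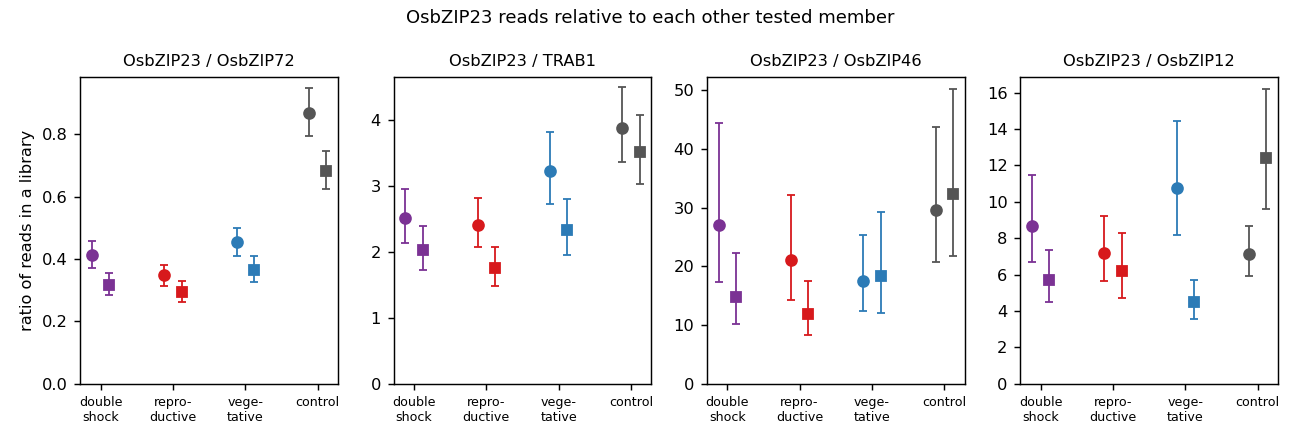
Reads of OsbZIP23 divided by the reads of OsbZIP72, TRAB1, OsbZIP46 and OsbZIP12 in the same library (y axis, linear, from 0), by group, with a circle for replicate 1, a square for replicate 2 and bars for the 95% exact binomial interval of counting error. Against OsbZIP72 the 6 shock libraries lie between 0.294 and 0.454 and the control libraries at 0.867 and 0.683.

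The 5 tested genes were counted against the background of all 18251 loci in each comparison. With a single test of any difference among the 4 groups, 0 of 5 passed the adjusted threshold, against 0.427% of all loci. At an unadjusted p below 0.05 the count was 1, OsbZIP23 (edgeR adjusted p = 0.34), where the background was 11.9%. In each comparison below, edgeR called 0 of the 5 at an adjusted p below 0.05, and the adjusted background is given first. DESeq2 called 1 of the 5, OsbZIP23, in reproductive-shock plants against control and in the added comparison. It called 0 of 5 in the other 9 comparisons, where it called 0.302% to 2.71% of the loci it adjusted. Genes to which DESeq2 gave no adjusted p are counted here as not called. In double-shock against reproductive-shock plants it adjusted 11174 loci, and OsbZIP46 and OsbZIP12 were not among them. For the average early-shock difference it adjusted still fewer, 7282 loci. The likelihood ratio test called OsbZIP23 in the added comparison and 0 of 5 in the other 10, where 0.0986% to 4.32% of loci were called.

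For reproductive-shock plants against control that background was 0.614%. At an unadjusted p below 0.05, 2 of 5 passed (OsbZIP23 lower, OsbZIP72 higher), against 14.2% of loci, and the libraries of 2 of 5 did not overlap, against 45.3%. For double-shock plants against control it was 0.164%, 1 of 5 passed unadjusted (OsbZIP23) against 11.2%, and 2 of 5 did not overlap against 41.6%. In vegetative-shock plants against control it was 0.0329%, 2 of 5 passed unadjusted (OsbZIP23 and TRAB1, both lower) against 7.70%, and 2 of 5 did not overlap against 34.3%. Separation of 2 libraries from 2 was thus common among all loci. The median log2 fold change of the 5 genes was 0.0039, -0.15 and -0.35 in reproductive-shock, double-shock and vegetative-shock plants, where the medians over all loci were -0.0033, 0.0074 and 0.0039.

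Among the shock groups, double-shock against reproductive-shock plants gave 0 edgeR calls over all loci (0%), where DESeq2 gave 72 and the likelihood ratio test 95, and 0 of 5 genes passed unadjusted where 8.05% of loci did. No gene of the 5 was free of overlap there, against 41.6% of loci. For double-shock against vegetative-shock plants the adjusted background was 0.0712%, 0 of 5 passed unadjusted against 8.66%, and 1 of 5 (TRAB1) did not overlap against 38.3%. Reproductive-shock against vegetative-shock plants gave 0.0548%, 1 of 5 unadjusted (TRAB1) against 7.63%, and 1 of 5 without overlap (TRAB1) against 38.0%.

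The interaction had an adjusted background of 0.0986%, with 0 of 5 passing unadjusted against 9.71%. For the average late-shock difference these were 0.449% and 2 of 5 (OsbZIP23 lower with a log2 difference of -0.43, OsbZIP72 higher) against 12.8%. The OsbZIP23 value (interval -0.84 to -0.020) averaged -0.82 in plants not shocked before and -0.033 in plants shocked before. Without vegetative replicate 1 it was -0.22. The average early-shock difference had 0% of loci called by edgeR (22 loci by DESeq2 and 18 by the likelihood ratio test) and 0 of 5 genes unadjusted, against 5.78%. In the added comparison of all 3 shock groups with control, 0.668% of loci were called, 1 of 5 genes (OsbZIP23) passed unadjusted against 12.4%, and the same 1 did not overlap against 12.0%. The comparison was chosen after the values of OsbZIP23 had been seen, so these counts of the 5 genes are descriptive only.

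Loci with the most similar pattern were sought for each tested gene by Pearson's r of log2 CPM over the 8 libraries, as a description across all 18251 loci. The nearest was LOC_Os07g43220 for OsbZIP23 (r = 0.981, with a mean of 1.15 CPM and 7 loci in all above r = 0.95), LOC_Os03g60790 for OsbZIP72 (r = 0.976), LOC_Os07g47510 for TRAB1 (r = 0.955), LOC_Os05g07090 for OsbZIP12 (r = 0.965) and LOC_Os08g33350 for OsbZIP46 (r = 0.952). The libraries shared depth and scaling in all of these. Each r is the highest of a search over all 18251 loci with only 8 libraries. How high such a search reaches without a shared pattern was not tested. None of the 5 was nearest to another. The closest pair among the 5 was OsbZIP23 and TRAB1 (r = 0.496), which placed TRAB1 at rank 2325 among loci by likeness to OsbZIP23.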

How the data were processed

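The authors deposited raw read counts per locus, 1 table per library. The submitters' processing notes name STAR 2.7, HTSeq 0.11.1, FastQC 0.11.7, edgeR 3.8 and Trimmomatic. Tool settings, build, annotation and any use of strand are not given in the sources, and loci with overlapping or near-identical partners have uncertain counts. The 5 HTSeq summary lines (14.97% to 19.2% of the reads) were left out. In R 4.3.3, edgeR 4.0.16 kept 18251 loci (filterByExpr) and fitted the 8 libraries with group as the only term and TMM factors. Quasi-likelihood F tests were two-sided, with Benjamini-Hochberg adjustment over all loci, and 4 residual and 4.77 prior degrees of freedom. A standard error is the log2 fold change over the square root of F, and 95% intervals use the t distribution. Limits of counting error treat reads as independent molecules. The 6 genes, the tests and the rule for named genes (all 6, and the nearest locus to each tested one) were chosen with earlier results of these data known. The procedure was run on simulated counts drawn with the fitted negative binomial dispersion only, without the further quasi-likelihood spread. That run does not give the power for these genes. Replicate libraries of a group differed beyond counting error (chi-square per degree of freedom 12.4 to 14.4). Alternatives were RLE factors, other count filters, DESeq2 1.42.0, the likelihood ratio test, robust quasi-likelihood, fits of 2 groups alone, a replicate block, each library left out and a term for multiply aligned share, the last chosen after seeing the data. A group left with a lone library was taken to have the spread of the other groups.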

Additional observations from a re-analysis of the deposited data

How the results depend on the processing

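OsbZIP23 kept a negative log2 fold change against control in all alternatives run: -1.05 to -0.63 in reproductive-shock, -1.04 to -0.54 in double-shock and -1.15 to -0.41 in vegetative-shock plants. Values to which DESeq2 gave no adjusted p were counted as not called. Over 910 alternative values of the 5 genes, 11 were called, all of them OsbZIP23. Of these, 7 came without the low-count filter (1 member called in each): any difference among the groups 0.825, reproductive -0.825, double-shock -0.776 and vegetative -0.736 against control, interaction 0.786, average late shock -0.432 and the 3 shock groups -0.779. That fit held 30913 loci and estimated the prior degrees of freedom as infinite, so each locus took the spread of the trend and not its own. DESeq2 called it in reproductive-shock plants (-0.818) and for the 3 shock groups (-0.771), the likelihood ratio test (-0.777) and the replicate block (-0.812) for the 3 shock groups alone. Calls for the 3 shock groups come from the comparison added after the values had been seen, and are descriptive only.

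The replicate numbers were not taken as pairs: deviations of same-numbered libraries correlated at -0.153 to 0.254, over 0.1 in 3 of 6 pairs of groups. Against control, the block gave 131 called loci instead of 112 in reproductive-shock, 54 instead of 30 in double-shock and 11 instead of 6 in vegetative-shock plants.

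Without 1 library at a time, the following values changed sign within their ranges, and none was called. OsbZIP23 ran from -0.216 to 0.279 in double-shock against reproductive, -0.356 to 0.375 in double-shock against vegetative and -0.409 to 0.322 in reproductive against vegetative plants. In the order reproductive, double-shock and vegetative against control, OsbZIP46 ran from -0.081 to 0.327, -0.351 to 0.017 and -0.397 to 0.406, and OsbZIP12 from -0.734 to 0.053, -0.761 to 0.027 and -0.704 to 0.080. TRAB1 ran from -0.070 to 0.081 and -0.179 to 0.010 in the first 2, and OsbZIP72 from -0.084 to 0.337 in the third. Double-shock against reproductive gave TRAB1 -0.183 to 0.0063 and OsbZIP12 -0.125 to 0.082. Double-shock against vegetative gave OsbZIP46 -0.553 to 0.249, OsbZIP72 -0.048 to 0.373 and OsbZIP12 -0.290 to 0.241. Reproductive against vegetative gave OsbZIP46 -0.274 to 0.530 and OsbZIP12 -0.263 to 0.267. The interaction gave OsbZIP46 -0.685 to 0.116 and OsbZIP12 -0.106 to 0.677. Average late shock gave OsbZIP46 -0.210 to 0.191 and OsbZIP12 -0.396 to 0.00032. Average early shock gave OsbZIP46 -0.339 to 0.063, OsbZIP12 -0.365 to 0.027 and OsbZIP72 -0.109 to 0.102, the last also -0.0013 with the replicate block and -0.018 with the term for multiply aligned share. The 3 shock groups against control gave OsbZIP46 -0.137 to 0.130 and OsbZIP12 -0.733 to 0.054.

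Called loci, the background of the counts, moved more. The likelihood ratio test called 603, 360 and 175 in reproductive-shock, double-shock and vegetative-shock plants against control, where the fit above called 112, 30 and 6, and no filter 1291, 1119 and 499. Leaving out 1 library gave 1 to 143, 4 to 49 and 0 to 52. Elsewhere the highest counts apart from the unfiltered fit were 789 (against 78) for any difference, 95 (against 0), 164 (against 13) and 97 (against 10) among the shock groups, 249 (against 18) for the interaction, 519 (against 82) and 22 (against 0) for the averages and 515 (against 122) for the 3 shock groups. OsABI5 had the fewest reads of the 6 genes, and the reason was not tested.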
